A study of Schizosaccharomyces pombe with 2 samples.

Results

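The genes described here encode the transcriptional corepressors of the Tup family in fission yeast (Schizosaccharomyces pombe), their partner Ssn6 and the histone deacetylases that corepressors of this kind work with. They were chosen by name from the spotted DNA array. Of 8 names looked for, 7 were found, each printed as 2 spots on each array, or 14 spots of 11520. These 7 features stand among 4954 gene features in all. They were tup1, tup11 (printed as SPAC18B11.10), ssn6 (SPBC23E6.09), clr3, clr6, hos2 (printed under its older name hda1) and sir2 (SPBC16D10.07c). No feature named tup12 was analysed here.

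The series compared RNA of cells labelled tup11,12D, read here as carrying deletions of both tup11 and tup12, with RNA of cells labelled wild type. Both strains grew logarithmically in rich medium. A medium named YES and a temperature of 30 degrees were given for the mutant on array 1, and no further genotype of either strain and no marker gene was given. Each of the 2 arrays held both strains and its own RNA preparation, and the dyes were swapped between them (mutant in Cy3 on array 1 and in Cy5 on array 2), so n = 2 throughout. Nothing stated that the preparations came from separate cultures. The p-values rest on the spread between these arrays, mostly pooled over features, and this spread may be technical. The file headers did not name the strain of a channel. The first channel of each array was taken to hold the mutant, a likely reading that no label states, and with the opposite reading every sign given here would turn.

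In budding yeast, Tup1 forms a complex with Ssn6 (also called Cyc8) that has no DNA-binding domain of its own. DNA-binding repressors bring the complex to promoters, where Tup1, a WD40-repeat protein, contacts histone tails and recruits histone deacetylases, and the genes nearby are kept off. Fission yeast has a pair of Tup1-like proteins, Tup11 and Tup12, and an Ssn6 of its own, and it is known for glucose-repressed, iron-uptake and stress genes that need them for repression. Its deacetylases include Clr6 and Hos2 of class I, Clr3 of class II and Sir2, which uses NAD.

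Signals are given for each spot in scanner units, as the median of the spot minus the median of its local background. The gain differed between channels, so a ratio of raw signals is not a fold. Ratios of mutant to wild type are given on the log2 scale, after normalisation of each array. As a measure of unspecific signal, 96 spots of the bacterial genes aceF and kdtA were used, and a feature cleared background in a channel when its signal passed their 95th percentile. That threshold was 442 for the mutant and 1659 for the wild type on array 1, and 1077 and 488 on array 2. The median signal over gene features was 1306 and 3862 on array 1 and 1894 and 1370 on array 2, in the same order. Spots with quality code 3 in either channel, 905 on array 1 and 765 on array 2, were left out. With 2 arrays, precision is limited throughout. In RNA from a culture, fewer cells with a transcript and less of it per cell cannot be told apart.

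The feature named tup1 was the single called one among the 7, and it was lower in the mutant. On array 1 its spots gave 712 and 1100 in the mutant against 10680 and 15681 in the wild type. On array 2 they gave 669 and 1305.5 in the mutant against 9848 and 4175 in the wild type. All 4 spots were thus far dimmer in the mutant channel, including the first one of array 2, which carried code 3 in the wild-type channel and was left out. The 3 spots used had log2 ratios of -2.33 and -2.40 on array 1 and -1.86 on array 2, and the spot left out had -3.78.

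**Figure D1:**
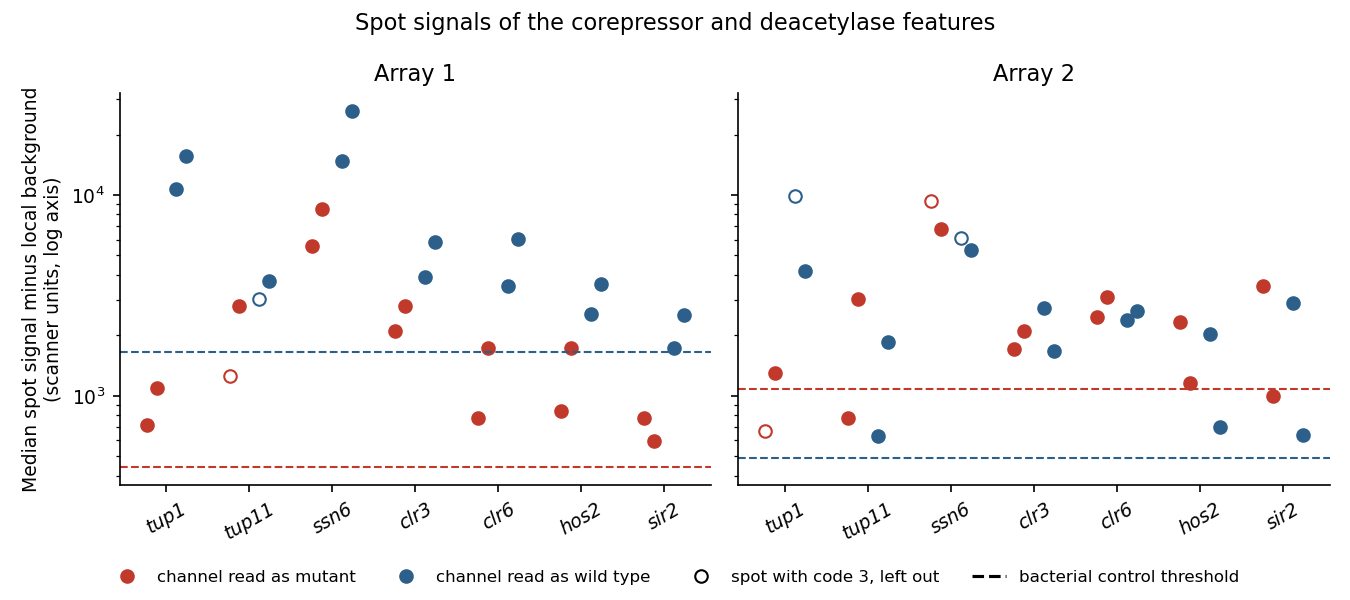
Background-subtracted signal of every spot of the 7 features (log axis, scanner units), by array, with the channel read as mutant in red, that read as wild type in blue, spots left out as open circles and the threshold from bacterial controls as a dashed line. The mutant spots of tup1, at 669 to 1305.5, lie far below its wild-type spots, at 4175 to 15681.

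Averaged within arrays, tup1 stood at -2.37 on array 1 and -1.86 on array 2, a mean of -2.11 ± 0.36 (SD, n = 2) or 4.32-fold lower in the mutant. Its 95% interval ran from -2.59 to -1.63 (limma adjusted p = 0.000496 over all features tested). Its mean ranked 3rd from the lowest of 4811 tested, and by array tup1 ranked 4th on array 1 and 14th on array 2. Over all features tested, 3.28% were called. Those higher in the mutant were 113 (2.35%) and those lower 45 (0.935%), a split that became 207 and 183 with print-tip loess and 33 and 5 with median centring. The array name tup1 matched no symbol, systematic name or synonym of the gene table used for names (ASM294v3), so whether this feature reads tup11, tup12 or another gene is not settled.

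The mutant signal of tup1 was weak, though above the threshold in the spots used. The spot left out on array 2, at 669, was below the threshold of 1077. The mean of its used spots was 906 on array 1 and 1305.5 on array 2, above the thresholds of 442 and 1077. Spots of a further bacterial gene, tufA, which should find no partner in yeast RNA, were also bright. On array 1 the median tufA spot, at 554 in the mutant and 1930 in the wild type, passed the thresholds of 442 and 1659. On array 2 the medians of 761 and 297 were below the thresholds of 1077 and 488. A feature could thus clear background on array 1 and be no brighter than the median tufA spot. Of 48 tufA spots, 13 on array 1 and 9 on array 2 were at least as bright as tup1 in the mutant channel. In the wild-type channel 1 and 0 of the 48 reached tup1, which gave 13180 and 4175 there. The signal left in the mutant thus lay inside the range of the tufA spots, and that of the wild type lay above all of them but 1.

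The tup11 feature showed no such loss. On array 1 its spots gave 1249 and 2816.5 in the mutant against 3025 and 3739 in the wild type. On array 2 they gave 779 and 3036 in the mutant against 632 and 1847.5 in the wild type. In raw signal, which depends on the gain of the channel, both mutant spots were dimmer than their wild-type counterparts on array 1 and brighter on array 2. The first spot on array 1 carried code 3 in the mutant channel and was left out, so that the value of array 1 rests on 1 spot.

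Normalised, tup11 stood at 0.95 on array 1 and -0.11 on array 2, with a mean of 0.42 ± 0.75 (SD, n = 2) and a 95% interval from -0.17 to 1.01 (limma adjusted p = 0.49). The arrays disagreed in direction, by 1.06 on the log2 scale, and 2.85% of tested features had a wider gap. The spots disagreed as well. They gave 0.32 (left out) and 0.95 on array 1 and -0.50 and 0.28 on array 2, whereas the median gap between repeat spots was 0.29 on array 1 and 0.33 on array 2 over all gene features. Of the tufA spots, 1 and 3 of 48 were as bright as tup11 in the mutant channel on arrays 1 and 2, against 7 and 5 in the wild-type channel. A deletion of tup11 was therefore not visible at this feature. The stretch of the gene that it covers is not stated, and a feature outside a deleted part checks nothing.

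The array also held a control feature named KanMX-R, after the drug-resistance cassette often used to replace genes in yeast. In the mutant channel its spots gave 15 and 27 on array 1 and 406.5 and 401.5 on array 2, and in the wild-type channel 451 and 1345 on array 1 and 27.5 and 19 on array 2. All 8 of these signals were below the thresholds, so in neither strain could they be told from unspecific signal.

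**Figure D2:**
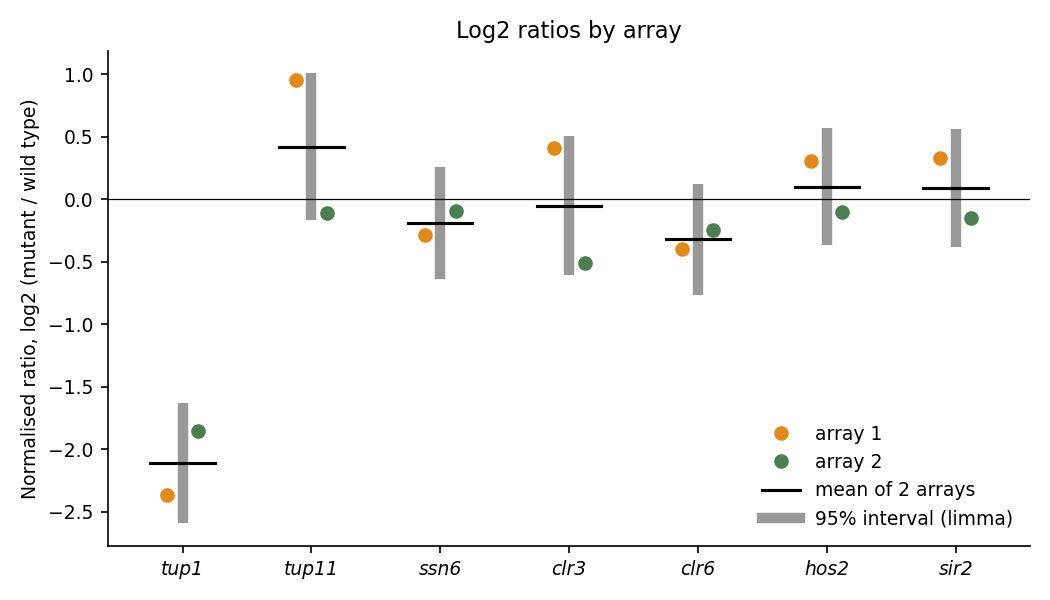
Normalised log2 ratios of mutant over wild type for the 7 features on array 1 (orange) and array 2 (green), with the mean (black line) and the 95% interval from limma (grey bar). The interval of tup1 ends at -1.63, and those of the 6 other features include 0.

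The gene ssn6 encodes the tetratricopeptide-repeat protein that joins Tup proteins to DNA-binding repressors. It gave 5598 and 8524.5 in the mutant and 14764 and 26105 in the wild type on array 1, and 9328 and 6774.5 in the mutant and 6128 and 5329.5 in the wild type on array 2. Every one of these signals was above its threshold, and 1 spot of array 2 was left out for code 3. Its log2 ratio was -0.28 on array 1 and -0.09 on array 2, with a mean of -0.19 ± 0.13 (SD, n = 2). The 95% interval ran from -0.64 to 0.26 (limma adjusted p = 0.724).

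None of the 4 deacetylase genes among the 7 features was called. The class I enzyme Clr6 is essential and deacetylates histones across most of the genome. Its gene gave 778 and 1740 in the mutant against 3521.5 and 6058.5 in the wild type on array 1, and 2457 and 3118.5 against 2398 and 2639.5 on array 2. All 4 of its spots had ratios below 0 after normalisation, at -0.42, -0.38, -0.33 and -0.15. The mean of -0.32 ± 0.11 (SD, n = 2) had an interval from -0.76 to 0.12 (limma adjusted p = 0.49). Along with tup1 and ssn6, clr6 was one of the 3 features below 0 on both arrays.

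The class II enzyme Clr3, the catalytic subunit of the silencing complex SHREC, differed most between the arrays among the deacetylases. Its gene gave 2113.5 and 2790 in the mutant against 3884 and 5831 in the wild type on array 1, and 1715 and 2111 against 2734 and 1681.5 on array 2. The log2 ratio was 0.41 on array 1 and -0.51 on array 2, a gap of 0.92 that 4.91% of tested features exceeded. Its spots of array 2 stood at -0.95 and -0.07, so the repeat spots of a single array were nearly as far apart as the arrays. The mean was -0.05 ± 0.65 (SD, n = 2), with an interval from -0.60 to 0.51 (limma adjusted p = 0.951).

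Hos2, the class I enzyme of the Set3 complex, gave 844.5 and 1731.5 in the mutant against 2554.5 and 3607.5 in the wild type on array 1, and 2332 and 1162.5 against 2035 and 697 on array 2. The log2 ratios of hos2 were 0.31 and -0.10, with a mean of 0.10 ± 0.29 (SD, n = 2) and an interval from -0.36 to 0.57 (limma adjusted p = 0.86). The sirtuin gene sir2, whose product acts in heterochromatic silencing, was close to the threshold of 1659 in the wild type of array 1. It gave 779 and 594.5 in the mutant against 1734.5 and 2539.5 in the wild type on array 1, and 3534.5 and 992.5 against 2898 and 641 on array 2. On array 1, 16 of 48 tufA spots in the mutant channel and 21 in the wild-type channel were at least as bright as sir2. Its log2 ratios were 0.33 and -0.15, with a mean of 0.09 ± 0.34 (SD, n = 2) and an interval from -0.38 to 0.56 (limma adjusted p = 0.883).

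Taken by array, tup11, clr3, hos2 and sir2 were above 0 on array 1 and below 0 on array 2. Opposite signs were common, at 40.2% of all features tested, and 20.8% of them were opposite in that particular way. With the dyes swapped between arrays, array and dye cannot be told apart for these 4 features. The intervals of the 6 features other than tup1 lay between -0.76 and 1.01, so a decrease to the extent seen at tup1 was outside each of them, whereas an increase of tup11 close to 2-fold was not.

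**Figure D3:**
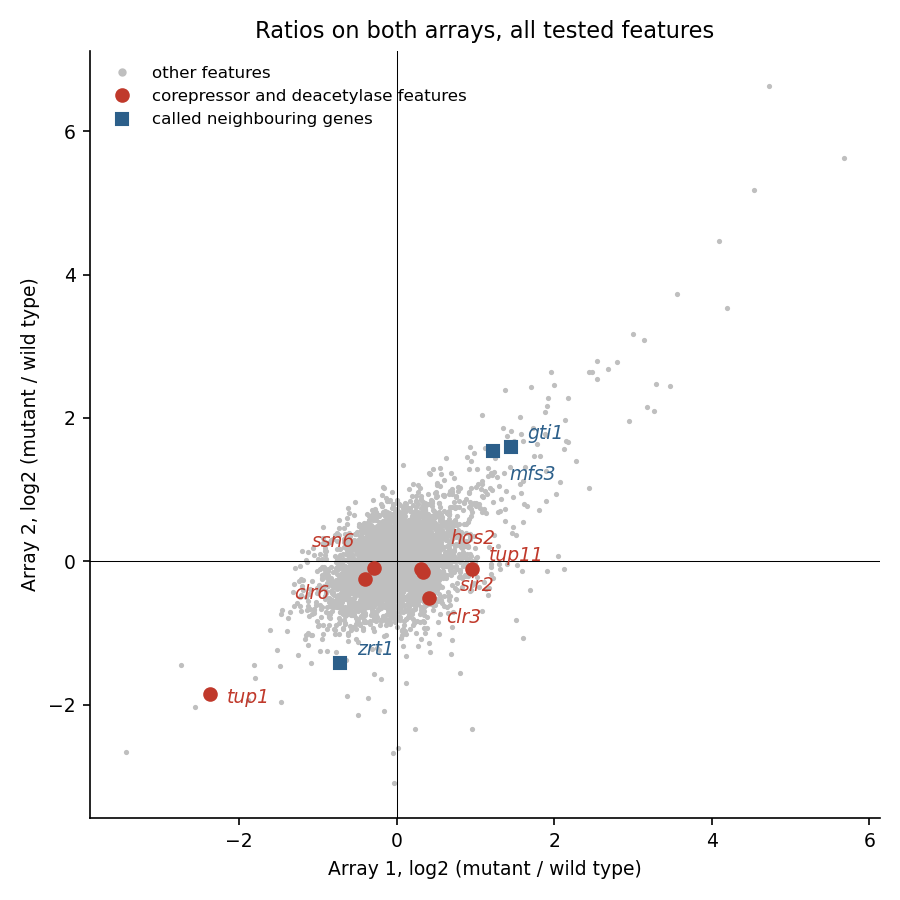
Log2 ratio on array 1 (x axis) against array 2 (y axis) for the 4811 features tested (grey), with the 7 corepressor and deacetylase features in red and called neighbouring genes in blue squares. The feature tup1 lies far out at -2.37 and -1.86, while tup11 lies at 0.95 and -0.11.

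The direction of tup1 held under all 12 other processing settings that gave it a value, with means from -2.87 to -1.97, and it was called in 11 of them. Among these, an intensity trend in the error model and a limit to features well above background left the mean at -2.11 by construction. Those settings bear on the call alone. With the authors' deposited log ratios it stood at -2.38 without being called (limma adjusted p = 0.0841). The mean of tup11 ranged from 0.23 to 0.54 over 12 other settings and was called in 1, with mean signals in place of medians (0.53, limma adjusted p = 0.0431). The genes ssn6, clr3, clr6, hos2 and sir2 were called in 0 of their settings with limma, at unadjusted p-values of 0.366, 0.845, 0.139, 0.631 and 0.678 in the reported one.

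**Figure D4:**
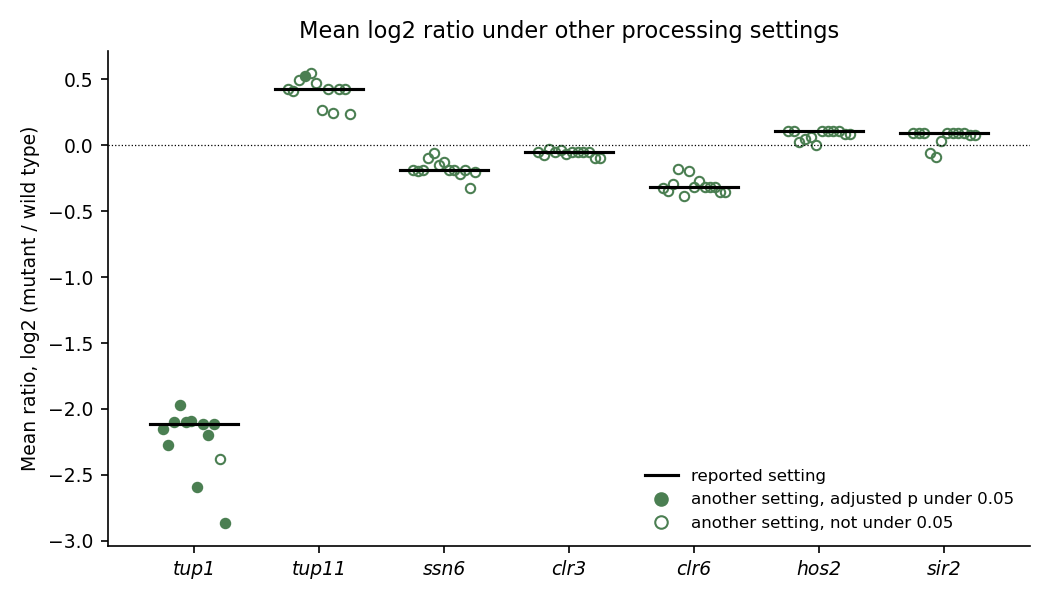
Mean log2 ratio of mutant over wild type for each feature in the reported setting (black line) and in 12 or 13 other processing settings (circles, filled where the adjusted p was under 0.05). For tup1 every circle lies between -2.87 and -1.97, and for the 6 other features every circle lies between -0.39 and 0.54.

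Corepressors act through larger complexes, and 9 lists of chromatin regulators with 61 genes were examined, of which 60 were tested. With limma 0 of the 60 were called (3.28% over all features), and 7 had an unadjusted p under 0.05, against 771 of the 4811 features in all. The median of the 60 was 0.01, as was that of all features tested. In all 4 channels 28 of the 60 cleared background (46.7%, against 64.4% of all features tested).

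Among 6 deacetylases and sirtuins 3 were lower on both arrays, 0 were higher on both, and the median was -0.18. The remaining sirtuin genes, hst2 and hst4, stood at -0.51 ± 0.09 (limma adjusted p = 0.244) and -0.38 ± 0.36 (limma adjusted p = 0.447), the latter with -0.63 on array 1 and -0.12 on array 2. The signal of hst2 cleared background in the mutant on 1 array only. For subunits of the Clr6 complexes the median over 13 genes was -0.32, with 6 lower and 3 higher on both arrays. Over all features 29.6% were lower and 30.1% higher on both. The lowest of the 60 was pst1, which encodes a Sin3-like scaffold of a Clr6 complex, at -1.02 on array 1 and -0.56 on array 2 (mean -0.79 ± 0.32, limma adjusted p = 0.0869). In the mutant, pst1 cleared background on array 1 but not on array 2. The related Sin3-like genes pst2 and pst3 stood at -0.54 ± 0.41 and -0.22 ± 0.38, with -0.83 and -0.48 on array 1 and -0.26 and 0.05 on array 2. The value of pst2 rests on 1 spot per array, and it cleared background on 0 arrays in the mutant and 1 in the wild type. The gene rxt3 was the highest of that list, at 0.45 ± 0.07 (limma adjusted p = 0.304).

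In SHREC the 4 genes tested ranged from clr2, at -0.39 (-0.17 on array 1 and -0.61 on array 2), to chp2, at 0.01, and in the Set3 complex the 3 genes ranged from snt1, at -0.35, to hif2, at 0.29. In the heterochromatin list of 8 genes the highest was chp1, which encodes a chromodomain protein of the RNAi machinery, at 0.64 ± 0.13 (limma adjusted p = 0.14). The signal of chp1 cleared background in none of the 4 channels. Of 8 acetyltransferase genes and partners 0 cleared background in all 4 channels, and they ranged from gcn5, at -0.53 ± 0.96 (-1.20 on array 1 and 0.15 on array 2), to hat1, at 0.40. Chromatin remodeller genes ranged from hrp1, at -1.19 on array 1 and -0.27 on array 2 (mean -0.73 ± 0.65, limma adjusted p = 0.185), to snf22, at 0.33. The signal of hrp1 cleared background on 0 arrays in the mutant and 1 in the wild type. The Mediator kinase module, which works with Tup1 in budding yeast, had a median of 0.00 over 4 genes, from srb11, at -0.19, to srb10, at 0.52 ± 0.67. The ratio of srb10 was 1.0 on array 1 and 0.05 on array 2.

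The 5 DNA-binding factors tied to Tup11 and Tup12 all cleared background in the 4 channels, and their median was 0.07. The highest was scr1, which encodes the zinc-finger repressor of glucose-repressed genes, at 0.33 on array 1 and 0.83 on array 2 (mean 0.58 ± 0.35, limma adjusted p = 0.219). The gene of the iron-responsive GATA repressor Fep1, printed as gaf2, stood at 0.07 ± 0.17. The lowest mean was that of atf1, which encodes a stress-response bZIP factor, at 0.01 ± 0.12, and its partner gene pcr1 stood at 0.12 ± 0.04.

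**Figure D5:**
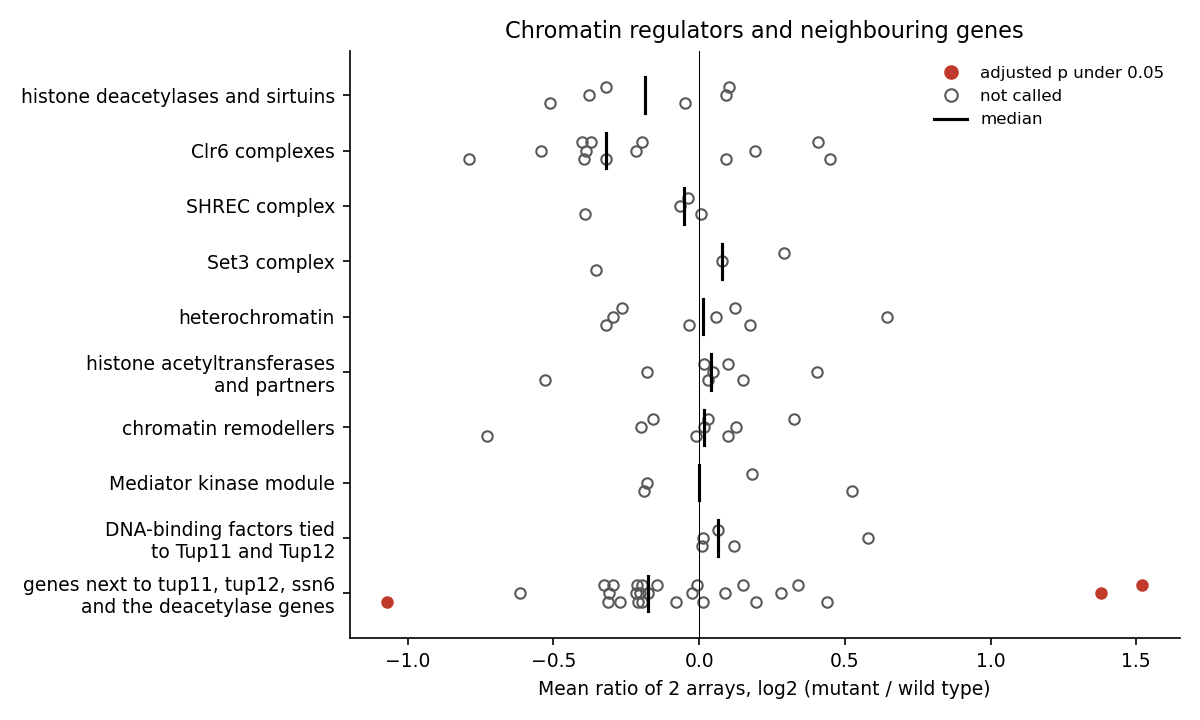
Mean log2 ratio of 2 arrays for each tested gene of 9 lists of chromatin regulators and for genes next to tup11, tup12, ssn6 and the deacetylase genes, with list medians as black bars and called features in red. All called features shown are neighbours, namely zrt1 at -1.07, mfs3 at 1.38 and gti1 at 1.52.

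Genes that lie beside the corepressor and deacetylase genes were examined next. The nearest protein-coding genes, 2 on each side of tup11, tup12, ssn6, clr3, clr6, hos2 and sir2, came to 28 genes, of which 26 were tested with 27 features. Of these 27 features 2 rose and 1 fell in the mutant, against 3.28% called over all features, and the difference in share was not tested. In all 4 channels 23 of the 27 cleared background. The median was -0.18.

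The gene gti1, whose product promotes gluconate uptake, follows tup12 directly in the gene order. It gave 2414 and 2863 in the mutant against 2171 and 2968 in the wild type on array 1, and 2929 and 2721 against 525 and 461.5 on array 2. On array 2 the wild-type spots of gti1 lay on either side of the threshold of 488. The log2 ratios of 1.45 and 1.59 were close together, and gti1 rose 2.87-fold (1.52 ± 0.10, SD, n = 2, limma adjusted p = 0.00226). It lost the call with median centring in place of loess (1.56, limma adjusted p = 0.337) and with the authors' deposited values (1.71, limma adjusted p = 0.152). On the other side of tup12 lies tsc2, at 0.44 ± 0.09 (limma adjusted p = 0.319), and beyond gti1 and tsc2 lie loc1 and SPAC630.12, neither of which was called. No neighbour of tup11 was called. Of these, SPAC18B11.09c stood at -0.31 ± 0.01 (limma adjusted p = 0.495) and pat10 at -0.55 on array 1 and 0.26 on array 2 (mean -0.15 ± 0.58, limma adjusted p = 0.821), while pdi1 was not tested and SPAC18B11.11 had no feature in use.

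The other called neighbours lie beside deacetylase genes that were not named in the mutant's label. The gene mfs3 (SPBC36.03c), the second gene from clr6, rose 2.60-fold, with ratios of 1.22 and 1.54 on the arrays (1.38 ± 0.22, limma adjusted p = 0.00511). Between it and clr6 lies cys11, at -0.31 ± 0.04 (limma adjusted p = 0.505). The zinc transporter gene zrt1 lies directly beside sir2 and fell, with ratios of -0.72 and -1.42 (-1.07 ± 0.49, limma adjusted p = 0.0368). On the other side of sir2, the chaperone gene hsp104 stood at -0.18 ± 0.07 (limma adjusted p = 0.738). Both mfs3 and zrt1 lost the call with plain background subtraction (limma adjusted p = 0.0749 and 0.178), median centring (0.393 and 1) and the authors' deposited values (0.222 and 0.3).

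Features whose ratios on the 2 arrays were most like those of tup1 were found by Euclidean distance over these 2 values, which describes position only. The nearest was SPAC3G6.05, at -2.56 and -2.03, a distance of 0.26 on the log2 scale. Next came SPCC569.01c, at -1.88 and -1.93 (distance 0.49), although its mean of -1.91 became -1.14 with mean signals and -0.51 with the authors' deposited log ratios. It was followed by the tRNA methyltransferase gene trm44, at -2.74 and -1.45 (distance 0.55). The genes cbm1 and SPBC1271.07c followed at distances of 0.61 and 0.69. In the mutant SPCC569.01c and trm44 cleared background on neither array, while SPAC3G6.05, cbm1 and SPBC1271.07c did so on both, as tup1 did.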

How the data were processed

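The authors deposited 2 scanner tables with spot intensity on a linear scale, with means and medians of signal and local background for 2 channels and a score-like quality code of 0, 2 or 3, per the file headers. No source used here gives the image software or what the codes mean. The authors also deposited log10 ratios, normalised by Lowess per the series design text; their scale and direction (first over second channel) were read from the values, which correlated at 0.99 over 6383 spots of array 1 and 0.98 over 5974 of array 2 with the ratios computed here. The medians of these columns were -0.01 and 0.02, and 159 and 108 spots at their floor of -2 were left out.

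The mean median background of 1.80 and 408 (first and second channel, array 1) became 753 and 12.5 on array 2. The channel columns had thus exchanged dyes along with the strains, which does not tell which strain comes first. The first channel was read as the mutant because the authors' ratios place the first channel on top and the titles name the mutant first.

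Normexp background correction (offset 50) was applied to the median signals, followed by loess over each whole array (limma 3.58.1, R 4.3.3, statmod 1.5.0), with weight 0 for control and code 3 spots. Code 3 spots were then left out and repeat spots averaged, which left 4811 of 4954 features with values on both arrays. Of the names, 3467 matched the gene table by systematic name, 948 by symbol and 366 by synonym. Ratios were fitted with lmFit and eBayes with 1 residual degree of freedom and a prior of 8.41, so most of the error is pooled over features. P-values were adjusted by Benjamini-Hochberg over all features, with a threshold of 0.05. The fit was tested on simulated data. A dye term could not be added.

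The genes and lists were chosen with earlier results of these data known. Beyond the 7 features, the text names called members and the lowest and highest of each list (1 of them is not reported here), neighbours in the gene table, and the 5 features nearest to tup1; other members are named as context and were chosen after their values were seen. Alternatives were other background corrections, signals, normalisations, spot filters, error models and the authors' values.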

Additional observations from a re-analysis of the deposited data

How the results depend on the processing

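The count of called features depended on the processing. It was 158 as reported, 60 with plain background subtraction, 341 with no background correction, 389 with mean signals, 38 with median centring, 390 with print-tip loess, 256 with code 3 spots kept, 263 with code 2 spots left out (2334 features tested), 276 over features well above background (3098 tested), 328 with repeat spots kept apart by duplicateCorrelation and 265 with an intensity trend in eBayes. With the authors' deposited log ratios it was 0 in limma (592 at an unadjusted p under 0.05), and 46 with code 3 spots kept as well, an alternative chosen after seeing the data. The count was 134 with a normexp offset of 0. Higher and lower calls split 113 to 45 as reported, 187 to 154 with no background correction and 204 to 185 with mean signals. The cause of these shifts was not tested.

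Among list genes, 0 calls became 2 with mean signals, 3 with print-tip loess, 1 with code 3 spots kept, 1 with code 2 spots left out and 2 with duplicateCorrelation. Among neighbours, 3 calls became 1 with plain subtraction, 5 with no background correction, and 0 with median centring and with either form of the authors' values. Called under some setting were pst1 (3 settings), scr1 (2), pst2, rxt3, chp1 and hrp1 (1 each).

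The feature tup1 was called in all settings that gave it a value except the authors' log ratios (-2.38). With code 2 spots left out, tup1, tup11, clr3, hos2 and sir2 had no value. The mean of tup11 was called at 0.53 with mean signals. The sign of sir2 turned with mean signals (-0.063) and median centring (-0.091). Of 25 other features followed over the settings, 10 kept both their direction and their side of the adjusted p threshold in every setting with a value. Of the same 25, 23 kept their direction. The intensity trend and the limit to features well above background cannot change a mean, so no direction could turn under them. The exceptions were chp2, which turned with no background correction (-0.12), mean signals (-0.042) and median centring (-0.37), and atf1, which turned with no background correction (-0.0088), mean signals (-0.0016), print-tip loess (-0.025) and the authors' values (-0.017 in both forms). With either array left out the other alone remains, as a value without a test, and for the 7 features these values stand beside each result. No further pairing was added, because each array holds both strains and the ratio already pairs them. Dim signals limit sir2 on array 1. On array 2 a used mutant spot of sir2, at 992.5, and one of tup11, at 779, were below the threshold of 1077. Dim signals limit several lists as well. Of the acetyltransferase list 0 of 8 cleared background in all 4 channels, of the Clr6 complexes 5 of 13 and of SHREC 1 of 4. For heterochromatin it was 2 of 8 and for the Mediator kinase module 1 of 4. Shares were higher for deacetylases (5 of 6), the Set3 complex (2 of 3), remodellers (7 of 9) and DNA-binding factors (5 of 5).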
